A study of Homo sapiens with 24 samples.

Results

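The genes described here are RAG1, RAG2 and DNTT, the lymphocyte genes for V(D)J recombination, taken as every RefSeq accession in the count table whose symbol is one of these 3. The rule found 6 accessions (1 of RAG1, 3 of RAG2 and 2 of DNTT) of the 64519 in the table. RNA was measured in Nalm6, an established human B-cell precursor acute lymphoblastic leukemia line, expressing 1 of 4 shRNAs: shNS (a non-specific sequence), shG9a, shGLP or shHP1γ. Each of the 4 lines was treated for 8 h with 100 nM dexamethasone (dex), a synthetic glucocorticoid, or with its vehicle ethanol, which gave 8 conditions of 3 biological replicates and 24 libraries. The control cells also carried a lentiviral shRNA, and per the study's methods the lines were populations selected for puromycin resistance, not single clones. G9a and GLP are paired histone H3 lysine 9 methyltransferases, HP1γ is a reader of that methylation, and the study asked whether HP1γ is needed where G9a and GLP act as coactivators of the glucocorticoid receptor.

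V(D)J recombination builds antigen receptor genes in developing B and T cells. RAG1 and RAG2 together form the recombinase that cuts at recombination signal sequences beside the gene segments; RAG1 carries the catalytic site and RAG2 is its cofactor, which reads methylated histone H3 lysine 4. DNTT, terminal deoxynucleotidyl transferase, adds untemplated nucleotides at the cut ends before the end-joining machinery seals them, and is a classical marker of precursor lymphocytes. RAG1 and RAG2 are neighbours transcribed towards each other, and in pre-B cells their transcription responds to FOXO1, E2A and Ikaros family factors and to signals from the interleukin 7 receptor and the pre-B cell receptor.

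The 250 bases before the start of the main transcripts of RAG2 and DNTT are shown because these stretches hold letters related to E2A, named above, and to the glucocorticoid receptor. In GRCh37 the stretches are chr11:36619787-36620036 on the minus strand for RAG2 and chr10:98063941-98064190 on the plus strand for DNTT, each printed 5′ to 3′ on the strand of its gene and ending at the base before the start. Capitals mark matches, on either strand, to CAGGTG (an E-box of the kind E2A binds, which reads CACCTG on the other strand) and AGAACA (1 arm of the palindromic glucocorticoid receptor site, which reads TGTTCT on the other strand).
RAG2: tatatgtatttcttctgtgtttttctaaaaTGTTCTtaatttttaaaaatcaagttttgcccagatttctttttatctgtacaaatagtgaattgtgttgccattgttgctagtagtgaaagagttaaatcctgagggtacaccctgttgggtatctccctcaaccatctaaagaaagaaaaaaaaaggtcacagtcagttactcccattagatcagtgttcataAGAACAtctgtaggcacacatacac
DNTT: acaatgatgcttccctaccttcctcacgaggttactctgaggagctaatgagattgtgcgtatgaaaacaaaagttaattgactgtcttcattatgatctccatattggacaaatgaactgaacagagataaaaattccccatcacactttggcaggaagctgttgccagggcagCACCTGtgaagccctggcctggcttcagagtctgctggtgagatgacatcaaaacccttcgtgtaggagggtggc

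The RAG2 stretch held 2 matches to AGAACA, 220 and 25 bases before the start, and none to CAGGTG. The DNTT stretch held 1 match to CAGGTG, 75 bases before the start. Of 18921 promoter stretches of the same length, 17.2% held CAGGTG and 8.70% held AGAACA. Neither stretch held the loose palindrome of that site, GNACA and TGTNC with 3 bases between (0.264% of all), or the FOXO motif TGTTTAC (2.06% of all). The Ikaros core TGGGAA (19.5% of all) was also in neither stretch. The general E-box CANNTG had 1 match in the RAG2 stretch and 2 in the DNTT stretch, and 56.4% of all stretches held it. The stretches were 34.0% (RAG2) and 46.4% (DNTT) G and C, against a median of 63.6%, and 1.98% of all stretches were as low as that of RAG2. These matches are letters only; no binding was measured in the data used here.

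RAG1 (chr11:36531922-36614706, plus strand) and RAG2 (chr11:36597124-36619829, minus strand) overlap in GENCODE's GRCh37 annotation. The main transcript RAG1-201 has 2 exons, with its whole coding sequence of 3129 bases within 6588 exonic bases, and the main transcript RAG2-201 has 2 exons with 1581 coding bases within 2388. Exons of the 2 genes share 588 bases, of which 398 lie in RAG1-201 and come from the short transcript RAG2-202, and RAG2 shares 372 exonic bases with IFTAP on the opposite strand. Without strand, reads from such bases cannot be told apart, and the handling of strand in the counting is not given in the sources used here. DNTT (chr10:98064166-98098321, plus strand) has 2 annotated transcripts of 11 exons each, DNTT-201 and DNTT-202, of which only 5 and 25 exonic bases lie in 1 of the 2.

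**Figure D1:**
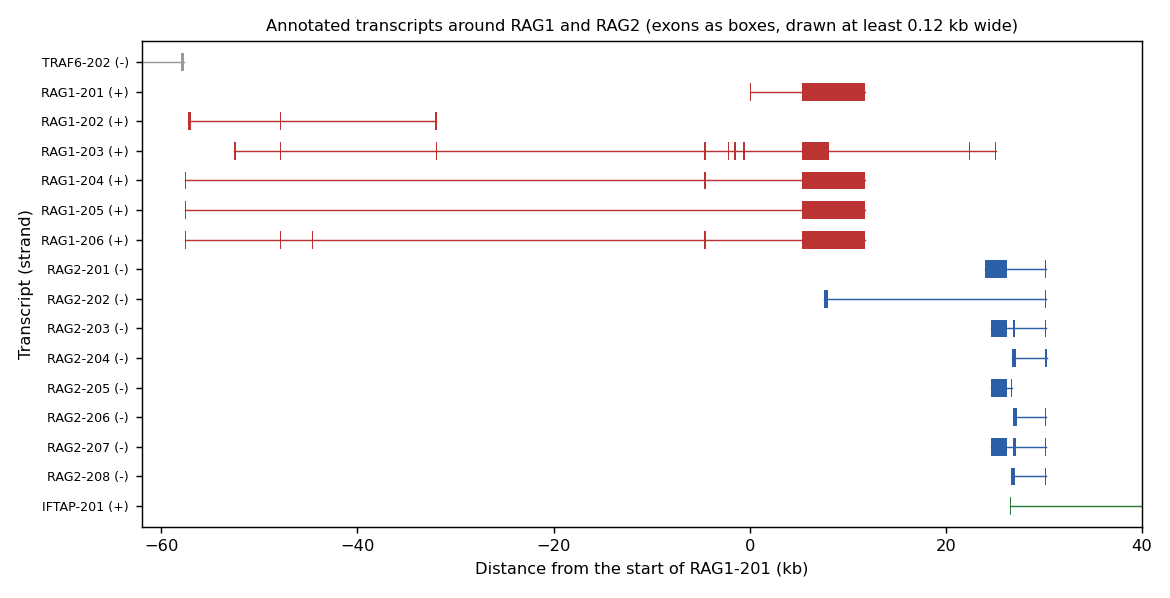
Annotated transcripts of RAG1, RAG2, and the nearest parts of TRAF6 and IFTAP in GRCh37, with the distance from the start of RAG1-201 in kb on the x axis, 1 transcript per row with its strand, exons as boxes and introns as lines. RAG1-201 and the main exons of RAG2 face each other, and the far exon of RAG2-202 lies inside the large exon of RAG1-201.

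Library totals ran from 9289533 to 14387770 counts. The line was checked against its markers: 6 of 8 B-precursor marker genes had counts, led by VPREB3 (1224 to 4348 counts), part of the surrogate light chain family, and IGLL1 (352 to 878 counts), while 3 of 5 T-cell markers had counts, with a summed level of at most 0.271 CPM (counts scaled to library size with upper quartile factors). CD22 and CD79B, which precursor B cells use, were listed at 0. Of the depleted genes, EHMT1 (encoding GLP; NM_001354259, 18 to 50 counts) fell in shGLP cells (log2 fold change -0.51, adjusted p = 0.0255, edgeR) and 1 of 2 accessions of CBX3 (encoding HP1γ; NM_016587, 18 to 82 counts) fell in shHP1γ cells (log2 fold change -0.55, adjusted p = 0.0231, edgeR). CBX3 NM_007276 gave -0.23 (adjusted p = 0.479, edgeR), and EHMT2, which encodes G9a, was not analysed here. The study itself reported, from immunoblots and RT-qPCR of its replicates, that each shRNA efficiently lowered the protein and mRNA of its target.

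Of the 6 accessions, 2 exceeded 1 CPM in 2 or more libraries and were tested: RAG1 NM_000448 and RAG2 NM_001243786. RAG1 NM_000448 held 12333 to 32723 counts, 0.106% to 0.286% of a library. RAG2 NM_001243786 held 20 to 67 counts, and RAG2 NM_000536 and NM_001243785 were listed at 0 in all 24 libraries. Both accessions of DNTT, NM_004088 and NM_001017520, were listed at 0 in all 24 libraries. At these depths a count of 0 allows up to 3 counts, or 0.216 to 0.318 CPM depending on the library; this limit covers counting error only.

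How many accessions a gene has in the table moved with its counts. Of 15702 genes with 1 accession, as RAG1 has, 13.5% had a mean of at least 1000 counts per library, against 2.23% of 4627 genes with 2 accessions, as DNTT has, and 0.680% of 7060 genes with 3 or more, as RAG2 has. Genes listed at 0 throughout made up 26.3%, 29.8% and 33.6% of these classes. The bases that the 2 DNTT transcripts share make up 99.7% and 98.7% of them. The 0 of DNTT is therefore given as listed, not as absence of the transcript, the level of RAG2 was not compared with that of RAG1, and the part of shared bases in either was not tested.

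**Figure D2:**
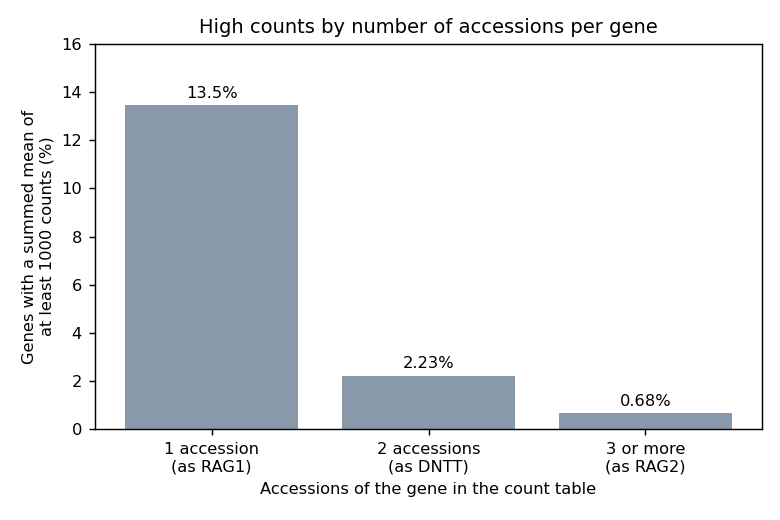
Percentage of genes whose accessions together had a mean of at least 1000 counts per library (y axis), for genes with 1, 2, and 3 or more accessions in the count table (x axis); each bar is 1 class of genes. The share was 13.5% for genes with 1 accession and 0.680% for genes with 3 or more.

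RAG1 was higher in cells depleted of G9a or GLP than in shNS cells and lower in cells depleted of HP1γ, with and without dex alike in direction. Averaged over both treatments the level was 1.42-fold that of shNS in shG9a cells, 1.53-fold in shGLP cells and 0.799-fold in shHP1γ cells. In bulk RNA, fewer cells that express a gene and less RNA per cell cannot be told apart.

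In ethanol-treated shNS cells, RAG1 was at 1721, 1641 and 1568 CPM in replicates 1, 2 and 3, a mean of 1643 ± 76.2 (SD, n = 3). In ethanol-treated shG9a cells it was at 2327, 2816 and 2226 CPM (2456 ± 316). In ethanol-treated shGLP cells it was at 2142, 2553 and 2542 CPM (2412 ± 234). All 6 of these depleted libraries lay above all 3 shNS libraries. How many of all tested transcripts separate in this way was not counted, here or for the separations below. In ethanol-treated shHP1γ cells RAG1 was at 1420, 1223 and 1235 CPM (1293 ± 110), below each ethanol-treated shNS library.

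With dex, the shNS cells had RAG1 at 1676, 1600 and 1488 CPM (1588 ± 94.4). The dex-treated shG9a cells had it at 2157, 2121 and 2096 CPM (2125 ± 31.0). The dex-treated shGLP cells had it at 2439, 2556 and 2604 CPM (2533 ± 85.0). The G9a- and GLP-depleted libraries again lay above all shNS libraries without overlap. The dex-treated shHP1γ cells had RAG1 at 1608, 1072 and 1196 CPM (1292 ± 280), and replicate 1 lay within the range of the dex-treated shNS cells while the other 2 lay below it.

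Ordered by mean, the 8 conditions ran from dex-treated shGLP cells through ethanol-treated shG9a, ethanol-treated shGLP and dex-treated shG9a cells to ethanol- and dex-treated shNS cells and then ethanol- and dex-treated shHP1γ cells. Neighbours in this order overlapped in their libraries except at 2 steps, from dex-treated shG9a to ethanol-treated shNS cells and from dex-treated shNS to ethanol-treated shHP1γ cells.

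**Figure D3:**
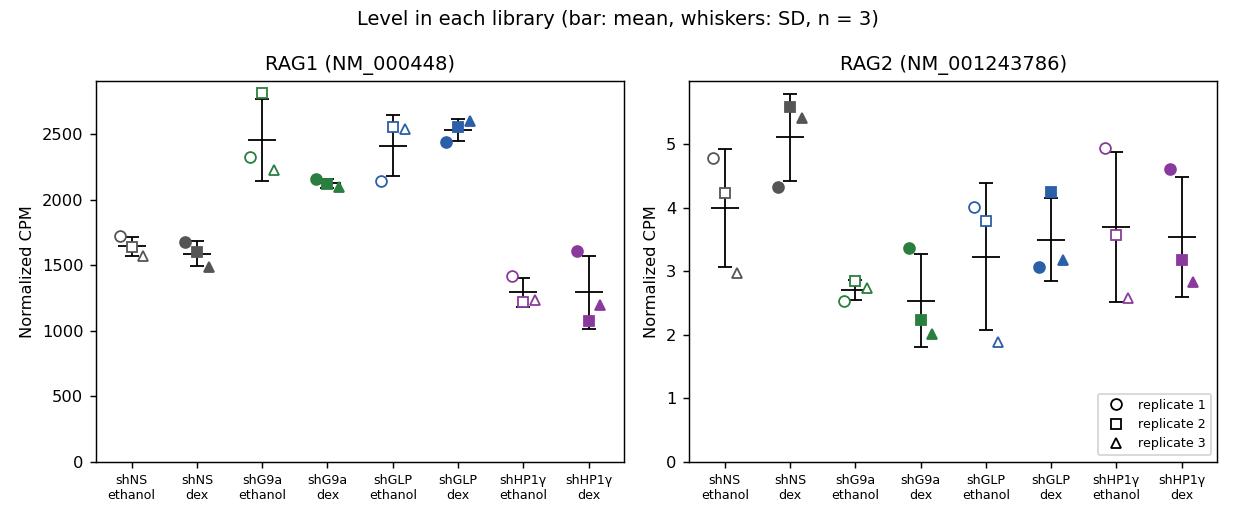
Normalized CPM (y axis) of RAG1 NM_000448 and RAG2 NM_001243786 in each of the 24 libraries by condition (x axis), with open symbols for ethanol, filled symbols for dex, shapes for replicates, a bar for the mean and whiskers for the SD (n = 3). RAG1 in shG9a and shGLP cells lies between 2096 and 2816 CPM, above every shNS library (1488 to 1721 CPM); RAG2 lies between 1.89 and 5.59 CPM and its groups overlap more.

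Tests were made across all 10167 transcripts that passed the filter with edgeR's quasi-likelihood test, and a call is a Benjamini-Hochberg adjusted p of at most 0.05. RAG1 was called in each of the 3 depletions averaged over treatments, where 13.6% (shG9a), 10% (shGLP) and 10% (shHP1γ) of tested transcripts were called. In the direction of RAG1 the shares were 6.36% (higher, shG9a), 5.79% (higher, shGLP) and 3.88% (lower, shHP1γ). With no filter on low counts the balance of shHP1γ calls turned, from 61.4% higher to 29.5% higher. The log2 fold change was 0.50 in shG9a cells (SE 0.07, 95% interval 0.35 to 0.66, adjusted p = 5.59e-05, edgeR). It was 0.62 in shGLP cells (SE 0.07, 0.46 to 0.77, adjusted p = 2.51e-06, edgeR). It was -0.32 in shHP1γ cells (SE 0.07, -0.48 to -0.17, adjusted p = 0.00577, edgeR). The direction was the same in 6 of 6 pairs of libraries with the same replicate number and treatment for each depletion, at 129% to 172% of shNS for shG9a, 125% to 175% for shGLP and 67.0% to 96.0% for shHP1γ. These 3 comparisons share the shNS libraries.

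The call in shHP1γ cells was lost with some replicates left out: without replicate 2 the log2 fold change was -0.24 (adjusted p = 0.0793, edgeR) and without replicate 3 it was -0.31 (adjusted p = 0.162, edgeR). The rises in shG9a and shGLP cells passed the test under every alternative run, including each replicate and each single library left out. RAG1 is an abundant transcript, and abundant transcripts were called more often: of 2252 tested transcripts with a mean of at least 1000 counts, 24.4% were called for shG9a, 18.7% for shGLP and 17.9% for shHP1γ. The median absolute log2 fold change of all called transcripts was 0.31, 0.35 and 0.31, against 0.50, 0.62 and 0.32 for RAG1.

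Within single treatments, RAG1 passed the test for shG9a in ethanol (log2 fold change 0.58, adjusted p = 0.00167, 3.73% of transcripts called, edgeR) and in dex (0.42, adjusted p = 0.013, 8.8% called, edgeR). It also passed for shGLP in ethanol (0.56, adjusted p = 0.00176, 3.61% called, edgeR) and in dex (0.68, adjusted p = 0.000147, 5.77% called, edgeR). For shHP1γ neither treatment passed alone, with -0.35 in ethanol (adjusted p = 0.0784, 2.91% of transcripts called, edgeR) and -0.30 in dex (adjusted p = 0.124, 4.09% called, edgeR). Leaving out the high replicate 1 of dex-treated shHP1γ cells gave -0.48 in dex (adjusted p = 0.00339, edgeR). Without replicate 3, in contrast, none of the 4 calls for shG9a and shGLP within a treatment held (adjusted p = 0.083 to 0.293, edgeR), and the call for shG9a in dex was also lost without dex-treated shNS replicate 2 (0.43, adjusted p = 0.0516) or replicate 3 (0.40, adjusted p = 0.0653).

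The depletions were also set against each other, a comparison added after the values had been seen. RAG1 was 1.77-fold higher in shG9a than in shHP1γ cells (log2 difference 0.82, SE 0.07, adjusted p = 4.43e-08, 15.1% of transcripts called, edgeR) and 1.92-fold higher in shGLP than in shHP1γ cells (0.94, SE 0.07, adjusted p = 3.67e-09, 10.7% called, edgeR). Between shGLP and shG9a cells the log2 difference was 0.12 (95% interval -0.04 to 0.27, adjusted p = 0.32, 15.7% called, edgeR). The 3 depleted lines therefore did not share a direction for RAG1.

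Of the myeloid markers, LYZ and MPO were tested: both rose in shGLP cells, and only LYZ was called in shG9a cells. LYZ, the gene for lysozyme, gave a log2 fold change of 2.96 in shGLP cells (adjusted p = 2.02e-09, edgeR) and 0.90 in shG9a cells (adjusted p = 0.0165, edgeR). In shHP1γ cells LYZ gave 0.70 and was not called (adjusted p = 0.0894, edgeR). MPO, the gene for myeloperoxidase, had only 2 to 40 counts in a library. It gave 1.18 in shGLP cells (adjusted p = 0.0127, edgeR), -0.74 in shG9a cells (adjusted p = 0.232, edgeR) and -1.22 with dex (adjusted p = 0.000712, edgeR). The summed level of the 5 markers, of which 3 had counts, was 20.4 to 34.0 CPM in shGLP libraries against 2.75 to 7.82 CPM in shNS libraries, 4.50 to 8.59 CPM in shG9a libraries and 2.83 to 11.7 CPM in shHP1γ libraries. CD14 had at most 4 counts in a library, and CSF1R and S100A8 were listed at 0. B-precursor markers moved as well: VPREB3 gave 0.61 in shGLP cells (adjusted p = 0.000311, edgeR) and -0.46 in shG9a cells (adjusted p = 0.00485, edgeR), and CD79A, a signalling chain of the B-cell receptor, gave -0.67 in shG9a cells (adjusted p = 0.0344, edgeR). In shHP1γ cells 1 accession of MME, the surface peptidase CD10, gave 0.56 (NM_001354644, adjusted p = 0.0175, edgeR). VPREB3 alone had a mean of 271 CPM over all libraries. Summed over the 8 markers, of which 6 had counts, the level was 258 to 419 CPM in shNS and 179 to 328 CPM in shG9a libraries. It was 401 to 559 CPM in shGLP and 330 to 498 CPM in shHP1γ libraries. The part of the myeloid and B-precursor markers in the RAG1 values was not tested.

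In G9a-depleted cells, where RAG1 was higher, the single detected accession of RAG2 was lower, at 0.578-fold of shNS over both treatments. Whether this accession stands for all RAG2 mRNA was not tested. In ethanol-treated cells RAG2 NM_001243786 was at 4.78, 4.24 and 2.98 CPM with shNS (4.0 ± 0.924, SD, n = 3) and at 2.54, 2.84 and 2.73 CPM with shG9a (2.70 ± 0.153). In dex-treated cells it was at 4.33, 5.59 and 5.42 CPM with shNS (5.11 ± 0.685) and at 3.37, 2.23 and 2.01 CPM with shG9a (2.54 ± 0.731). The shG9a libraries lay below all shNS libraries in both treatments, the highest at 39 counts and the lowest at 23. In ethanol the gap was narrow, from 2.84 CPM (33 counts) with shG9a to 2.98 CPM (35 counts) with shNS.

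The shGLP cells had RAG2 at 4.01, 3.79 and 1.89 CPM in ethanol (3.23 ± 1.16) and at 3.07, 4.25 and 3.17 CPM in dex (3.50 ± 0.655). The shHP1γ cells had it at 4.94, 3.57 and 2.59 CPM in ethanol (3.70 ± 1.18) and at 4.61, 3.18 and 2.83 CPM in dex (3.54 ± 0.942). Both overlapped with shNS in ethanol, and in dex the shGLP libraries lay below all shNS libraries while replicate 1 of shHP1γ did not. In order of their means, dex- and ethanol-treated shNS cells were highest and ethanol- and dex-treated shG9a cells lowest, and every pair of neighbours in the order of the 8 conditions overlapped in its libraries.

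For RAG2 the shG9a comparison passed the test over both treatments and the other 2 depletions did not (log2 fold change -0.79, SE 0.17, 95% interval -1.14 to -0.45, adjusted p = 0.00223, edgeR), where 7.24% of transcripts were called lower. It was lower in 6 of 6 pairs, at 37.1% to 91.7% of shNS. Within a treatment it passed in dex (-1.05, adjusted p = 0.00561, edgeR) and not in ethanol (-0.54, adjusted p = 0.276, edgeR), and the test of the difference between treatments gave -0.51 (SE 0.34, adjusted p = 0.78, edgeR; -1.03 to -0.12 with libraries left out). In shGLP cells RAG2 gave -0.43 (95% interval -0.77 to -0.09, adjusted p = 0.108, edgeR) with 6 of 6 pairs lower, and in shHP1γ cells -0.34 (-0.68 to -0.01, adjusted p = 0.209, edgeR) with 4 of 6 lower. With only the groups compared (-0.43, adjusted p = 0.0435) or without dex-treated shNS replicate 1 (-0.55, adjusted p = 0.0332) the shGLP comparison passed the test, and without replicate 1 that of shHP1γ in dex did (-0.88, adjusted p = 0.0439, edgeR). At 20 to 67 counts these intervals are wide, and without replicate 2 the shG9a comparison gave -0.71 (adjusted p = 0.0694, edgeR). The call within dex was lost without replicate 2 (-0.89, adjusted p = 0.161), without replicate 3 (-0.84, adjusted p = 0.151) and without dex-treated shNS replicate 3 (-0.84, adjusted p = 0.0557).

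**Figure D4:**
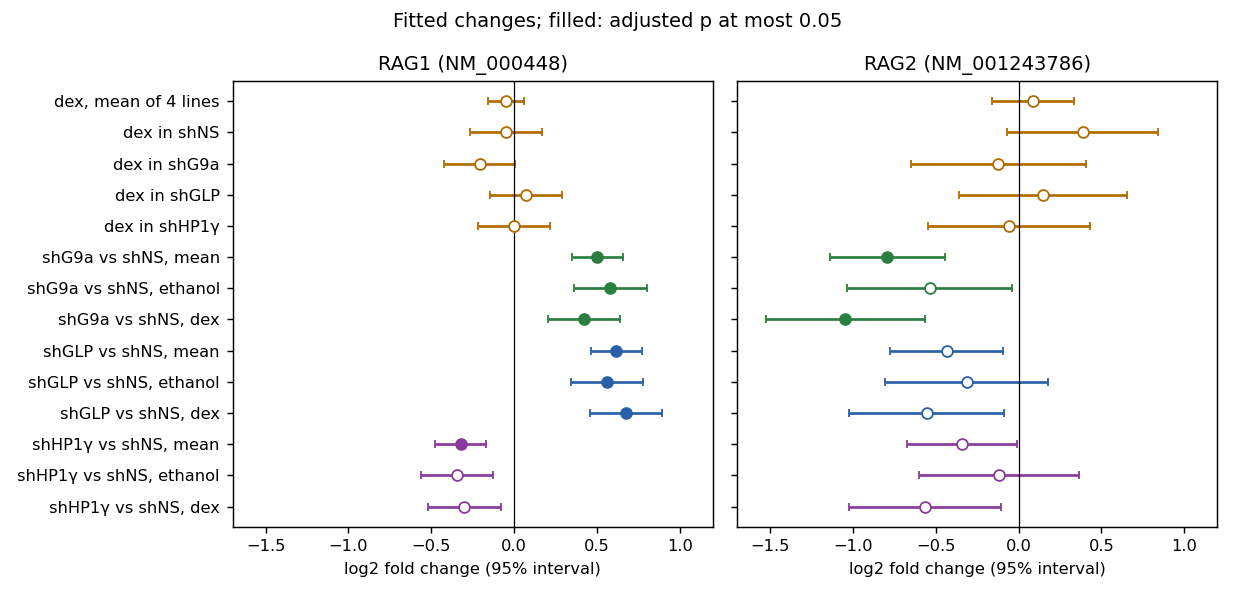
Fitted log2 fold changes (x axis) of RAG1 and RAG2 with 95% intervals for dex against ethanol and for each depletion against shNS (y axis); filled points have an adjusted p of at most 0.05. In shG9a cells RAG1 is at 0.50 and RAG2 at -0.79.

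With the main settings dex gave no called change of either gene in any line. With no filter on low counts, RAG1 passed the test in shG9a cells (log2 fold change -0.23, adjusted p = 0.0381, edgeR). For RAG1 the mean effect over the 4 lines was -0.05 (SE 0.05, 95% interval -0.16 to 0.06, adjusted p = 0.568, edgeR), in a comparison that called 23.8% of transcripts. By line it was -0.05 in shNS, -0.21 in shG9a (-0.27 to -0.08 with libraries left out), 0.07 in shGLP and -0.0034 in shHP1γ cells, with the lowest adjusted p in shG9a (0.269, edgeR), where 9.95%, 6.24%, 3.29% and 3.22% of transcripts were called. Of 12 matched pairs, RAG1 was higher with dex in 4 and lower in 8, with a mean log2 ratio of -0.05 ± 0.16 (SD) and p = 0.318 in a 2-sided exact permutation test. This permutation test took the 12 pairs as independent, although they came from 3 replicates. For RAG2 the mean effect was 0.09 (SE 0.12, -0.16 to 0.34, adjusted p = 0.661, edgeR), with 6 pairs higher and 6 lower (exact permutation p = 0.455).

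In fold, the interval of the mean dex effect ran from 0.897 to 1.04 for RAG1 and from 0.895 to 1.26 for RAG2. The tests of whether a depletion altered the dex effect gave -0.16, 0.12 and 0.05 for RAG1 in shG9a, shGLP and shHP1γ cells and -0.51, -0.24 and -0.44 for RAG2. None of these 6 differences passed the test, where 0.0885%, 0.118% and 0.0197% of transcripts were called.

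Among 7 lists of genes for the rest of V(D)J recombination and the neighbourhood of the 3 genes, 34 of 66 genes in the table had a transcript that could be tested, 38 transcripts in all. With dex 4 of them rose and 11 fell (39.5%, against 23.8% of all tested transcripts, 10.3% rising and 13.4% falling), with a median of -0.03 against -0.01 over all. In shG9a cells 3 rose and 1 fell (10.5% against 13.6%), in shGLP cells 4 rose and none fell (10.5% against 10%, of which 4.23% falling) and in shHP1γ cells 2 rose and none fell (5.26% against 10%, of which 6.16% rising). The remaining 32 genes had at most 15 counts in any library for any accession, and each of them had more than 1 accession. They include PAX5, EBF1 and TCF3, factors that define the B lineage. The tested genes were all 4 of the cofactors and a part of each other list.

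Among joining enzymes, 5 of 10 genes were tested. XRCC5, the larger subunit of the Ku complex that holds broken ends, fell with dex (log2 fold change -0.24, adjusted p = 4.27e-08, edgeR) and rose in shGLP cells (0.18, adjusted p = 0.000606, edgeR). PRKDC, the catalytic subunit of the kinase that Ku recruits, gave -0.01 with dex, and DCLRE1C, the Artemis nuclease that opens hairpin ends, gave -0.11, neither past the test. PRKDC was tested at a mean of 14.6 counts and DCLRE1C, in a non-coding accession, at 51.4, against 17756 for XRCC5. POLM, a polymerase of the same family as DNTT, gave -0.47 in shG9a and -0.46 in shGLP cells (adjusted p = 0.337 and 0.421, edgeR), at a mean of 7.6 counts. In the break response list (ATM, RAD50, H2AX and TP53BP1 tested of 7 genes) no transcript passed in any of the 4 comparisons. ATM and TP53BP1 were tested at means of only 8.9 and 8.5 counts.

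Cofactors of the reaction gave 6 tested transcripts of 4 genes. HMGB1, a DNA-bending protein that assists the recombinase, had 3 of them: NM_001313892 rose with dex (0.45, adjusted p = 0.0133, edgeR) and NM_002128 rose in shG9a cells (0.54, adjusted p = 0.0207, edgeR), and accessions of one gene share sequence. Neither rise was called in another accession of HMGB1. With dex NM_002128 gave -0.02 and the remaining one 0.12, and in shG9a cells NM_001313892 gave -0.03 and the remaining one -0.04. DNTTIP2, named for its interaction with terminal transferase, fell with dex (-0.18, adjusted p = 2.21e-05, edgeR). In the list for protein turnover, CCNA2, a cyclin that partners CDK2, the kinase that marks RAG2 for destruction as cells enter S phase, fell with dex (-0.17, adjusted p = 0.00194, edgeR) and rose in shGLP cells (0.20, adjusted p = 0.0156, edgeR). CDKN1B, an inhibitor of that kinase, rose with dex (0.14, adjusted p = 0.0186, edgeR), and DDB1, a ubiquitin ligase adaptor, fell by 0.07 (adjusted p = 0.0343, edgeR).

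Of 19 transcription factors, 9 were tested, in 11 transcripts, and 4 transcripts fell with dex and none rose. RUNX1 fell in both transcripts (-0.71 and -0.30, adjusted p = 0.00246 and 0.00844, edgeR), as did BCL11A (-0.36, adjusted p = 6.57e-05, edgeR) and 1 of 2 transcripts of LEF1 (-0.43, adjusted p = 0.0168, edgeR). The 2 RUNX1 transcripts had means of 13.0 and 87.4 counts, and this LEF1 transcript 24.8. FOXO1, an activator of both RAG genes, fell in shG9a cells (-0.20, adjusted p = 0.0141, edgeR) and gave 0.01 with dex. The other LEF1 transcript rose in shHP1γ cells (0.35, adjusted p = 0.0201, edgeR).

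Of 14 genes for pre-B signals, 6 were tested. With dex IL7R, the receptor for interleukin 7, fell (-0.83, adjusted p = 1.9e-10, edgeR), PIK3R1, a regulatory subunit of phosphoinositide 3-kinase, fell (-0.38, adjusted p = 0.000138, edgeR) and IRF8 fell (-0.24, adjusted p = 0.0429, edgeR). IRF4, a factor of light chain rearrangement, rose with dex (0.78, adjusted p = 0.031, edgeR) in a non-coding accession with a mean of 7.9 counts. AKT1, a kinase downstream of phosphoinositide 3-kinase, rose with dex (0.31, adjusted p = 0.0217, edgeR) at a mean of 48.4 counts. This was 1 of its 3 accessions, and the other 2 were listed at 0. PIK3R1 rose in each depletion, by a log2 fold change of 0.40 in shG9a, 0.43 in shGLP and 0.60 in shHP1γ cells (adjusted p = 0.00515, 0.00317 and 0.000163, edgeR). IRF8, a partner of PU.1 in B-cell and myeloid gene control, rose in shGLP cells (1.23, adjusted p = 5.4e-08, edgeR). STAT5B, which carries the interleukin 7 signal, rose in shG9a cells (0.17, adjusted p = 0.00253, edgeR).

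Of 7 neighbouring genes, TLL2 and TM9SF3, on the far side of OPALIN from DNTT, were tested and neither passed. TRAF6 and IFTAP, on either side of the RAG genes, had at most 2 counts and 0 counts in a library, so whether the neighbourhood moved with RAG1 was not detectable.

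**Figure D5:**
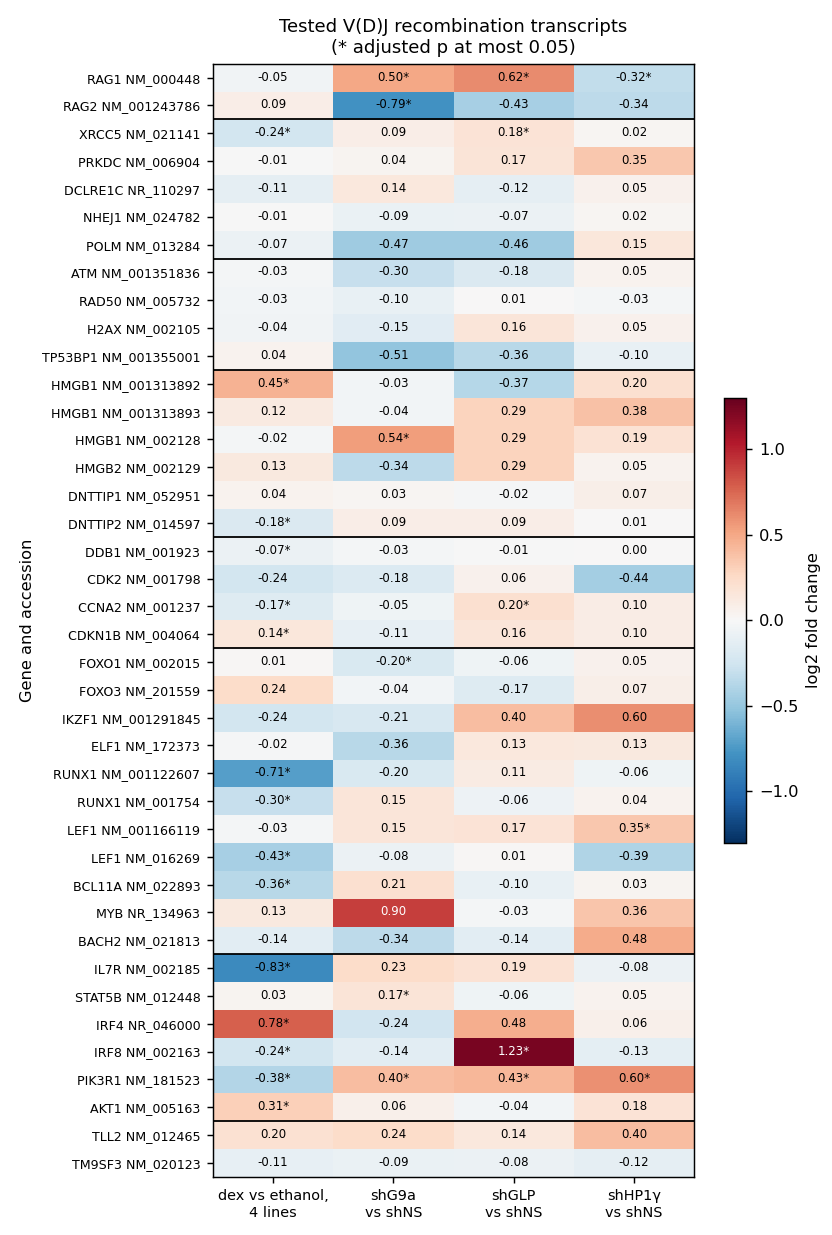
Log2 fold changes (colour and printed value) of RAG1, RAG2 and the 38 tested transcripts of the 7 lists (rows, lists parted by lines) with dex and in each depletion against shNS (columns); a star marks an adjusted p of at most 0.05. RAG1 is called in the 3 depletions and not with dex, and PIK3R1 in all 4 columns.

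The genes whose pattern was most like that of RAG1 were found by Pearson correlation of log2 CPM over the 24 libraries, after the mean of each replicate number was removed, among 5605 accessions with a mean of at least 5 CPM. The first 5 were LINC01559, a long non-coding RNA (r = 0.83), IL2RG, the common chain of the interleukin 2 and interleukin 7 receptors (r = 0.83), MUC19 (r = 0.81), CNNM4 (r = 0.81) and METTL14, a subunit of the RNA adenosine methyltransferase (r = 0.81). The libraries share lines and replicate days, and the correlations are a description. LINC01559 gave 0.77 in shG9a and 1.17 in shGLP cells (adjusted p = 0.00159 and 9.31e-06, edgeR) and -0.31 in shHP1γ cells (adjusted p = 0.278, edgeR), but it also rose with dex (0.61, adjusted p = 0.000205, edgeR). IL2RG gave 0.33 in shG9a and 0.45 in shGLP cells (adjusted p = 0.000801 and 1.35e-05, edgeR) but -0.02 in shHP1γ cells (adjusted p = 0.912, edgeR). MUC19 gave 1.37 in shGLP and -0.80 in shHP1γ cells (adjusted p = 3.37e-06 and 0.013, edgeR) and 0.31 in shG9a cells (adjusted p = 0.292). CNNM4 (0.10, 0.11 and -0.09 in shG9a, shGLP and shHP1γ cells) and METTL14 (0.06, 0.08 and -0.05) passed the test in none of the 3 depletions. RAG2, with a mean under 5 CPM, was outside this comparison.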

How the data were processed

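RNA of 24 Nalm6 libraries was sequenced, and the authors aligned trimmed reads to hg19 (GRCh37) using HISAT2 and obtained counts per RefSeq transcript from the GenomicAlignments package; the counting mode is not given in the sources used here. The deposited table is named for CPM but holds whole-number counts, used as raw counts. The authors also deposited fold changes and adjusted p values of their own comparisons, which were not used beyond the gene symbols.

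Counts were tested with edgeR 4.0.16 (R 4.3.3; upper quartile factors, transcripts over 1 CPM in 2 or more libraries, 10167 of them, from 9383 genes) in 1 quasi-likelihood fit (8 groups, replicate number as block), and p values were adjusted by Benjamini-Hochberg over all tested transcripts. The labels place replicates on different days; libraries of the same number had correlated deviations from their group means (-0.015 to 0.744, over 0.1 in 92.9% of 84 pairs). Standard errors are the log2 fold change over the root of F. P values set a difference against the spread between these libraries, all from Nalm6, and do not cover the spread between cell lines. The fit was tested on simulated data. DESeq2 1.42.0, TMM factors, other filters, RUV factors and left-out libraries were alternatives.

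Promoter stretches and transcripts come from the GRCh37 genome and GENCODE; that of RAG1 is not reported here. Genes named in the text include the members, the transcripts of the fixed lists called with dex or in a depletion, and the 5 most alike. Of the tested list transcripts that were not called, only a part is named. Members and lists were chosen with earlier results of these data known.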

Additional observations from a re-analysis of the deposited data

How the results depend on the processing

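The rises of RAG1 in shG9a (log2 fold change 0.44 to 0.57) and shGLP cells (0.55 to 0.71) and its differences between shG9a or shGLP and shHP1γ cells passed the test under all 36 alternatives. Other calls depended on the libraries kept. With replicates or single libraries left out, the lowest and highest values of RAG1 were -0.41 and -0.24 for shHP1γ over both treatments, -0.40 and -0.30 for shHP1γ in ethanol, -0.48 and -0.17 for shHP1γ in dex, 0.45 and 0.67 for shG9a in ethanol, 0.39 and 0.46 for shG9a in dex, 0.48 and 0.67 for shGLP in ethanol, and 0.61 and 0.75 for shGLP in dex. For dex they were -0.098 and 0.010 over the 4 lines, -0.067 and -0.022 in shNS, -0.27 and -0.08 in shG9a, -0.042 and 0.14 in shGLP, -0.18 and 0.13 in shHP1γ, and -0.24 and -0.03, 0.0065 and 0.19, and -0.14 and 0.18 for the altered dex effect in shG9a, shGLP and shHP1γ cells; between shGLP and shG9a cells they were 0.038 and 0.18. For RAG2 they were -0.90 and -0.68 for shG9a, -1.37 and -0.84 for shG9a in dex, -0.55 and -0.32 for shGLP, -0.55 and -0.22 for shHP1γ, -0.88 and -0.36 for shHP1γ in dex and -0.30 and 0.090 between shGLP and shHP1γ. For RAG2 with dex they were -0.0038 and 0.15 over the 4 lines, -0.40 and 0.033 in shG9a, -0.068 and 0.40 in shGLP, -0.21 and 0.13 in shHP1γ and 0.15 and 0.63 in shNS, and the altered dex effects gave -1.03 and -0.12, -0.46 and -0.03, and -0.67 and -0.24. The mean log2 ratio of the matched pairs ran from -0.10 (exact permutation p = 0.03125, without replicate 1) to 0.0056 for RAG1 and from -0.016 to 0.15 for RAG2. That permutation test took pairs of the same replicate as independent.

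With no filter on low counts RAG1 passed for shHP1γ in ethanol (-0.44) and in dex (-0.39) and for dex in shG9a (-0.23). For shHP1γ in ethanol it also passed with 1 RUV factor (-0.35), with 2 (-0.34), with only the groups compared (-0.35) and with DESeq2 (-0.35), and in dex with 2 RUV factors (-0.31). With only the groups compared RAG2 passed for shGLP (-0.43) and was lost for shG9a in dex (-1.03). The uncalled dex effect on RAG1 in shHP1γ changed sign with TMM factors (0.013), a mean of at least 5 CPM (0.029) and accessions summed (0.0037). RAG2 has no value at a mean of at least 5 CPM. The cause was not tested.

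Without the replicate block RAG1 gave 0.50, 0.61 and -0.32 for shG9a, shGLP and shHP1γ and no call of either gene changed, but 690, 565 and 507 transcripts were called in place of 1383, 1019 and 1020. Without replicate 3 the counts were 397, 385 and 344 and dex called 1058 in place of 2416; without replicate 2 shG9a called 788, and with only the groups compared shGLP called 1937. TMM factors moved the share of higher calls for shG9a from 46.8% to 56.9%, and DESeq2 that for shHP1γ from 61.4% to 49.1%. With no filter that share was 29.5% for shHP1γ, 43.0% for shGLP (57.8% as reported) and 35.8% for dex (43.5%), and with accessions summed 70.1% for shHP1γ. Over all alternatives, counts within ethanol ran from 28 to 820 for shG9a (379 as reported), 98 to 848 for shGLP (367) and 40 to 646 for shHP1γ (296), and within dex from 166 to 1512 (895), 165 to 1295 (587) and 63 to 781 (416). Those for dex ran from 309 to 2207 in shNS (1012), 145 to 1217 in shG9a (634), 86 to 971 in shGLP (334) and 98 to 1110 in shHP1γ (327). Between depletions they ran from 678 to 2090 for shG9a and shHP1γ (1533), 437 to 1674 for shGLP and shHP1γ (1083) and 615 to 2215 for shGLP and shG9a (1596), and the altered dex effects (9, 12 and 2 calls) reached at most 63, 96 and 31. RAG2 was tested at only 20 to 67 counts, and the cause of this low level was not tested. DNTT, listed at 0, was not tested, and the cause of its 0 was not tested.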
